A study of Mus musculus with 6 samples.

Results

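The heat shock proteins and DNAJ co-chaperones were followed in mouse adult fibroblasts (MAFs) under control conditions and in senescence. The members are the protein-coding rows of the count table whose gene names start with Hspa, Hspb, Hspd, Hspe, Hsph or Dnaja, Dnajb, Dnajc and a number, or with Hsp90. This rule found 73 of 43346 rows, 27 of them heat shock protein genes and 46 DNAJ genes, under 72 names because *Dnajc19* has 2 rows. The rule reads gene names and types, and it was set with earlier results of these data known.

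Heat shock proteins are molecular chaperones, which bind unfolded protein chains and help them fold, assemble or reach the right compartment. HSP70 proteins work in a cycle of ATP binding and hydrolysis, DNAJ (HSP40) proteins bring clients to HSP70 and start the hydrolysis, and HSP110 proteins release the nucleotide afterwards. HSP90 acts later on kinases and receptors, HSP60 and HSP10 form the folding chamber of mitochondria, and small heat shock proteins hold aggregating proteins without ATP. In the cytosol the stress-inducible members are controlled by HSF1, and in the endoplasmic reticulum (ER) by the unfolded protein response.

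RNA-seq was made from 3 control and 3 senescent samples of primary MAFs, which were taken from ear tissue of C57BL6/J mice (adult, female) and used at passages 3 to 8 under 3% oxygen. For senescence, cells were irradiated with 20 Gy X-rays and grown on for 21 days, while controls were sham irradiated. All 6 samples had been exposed to 100 nM dexamethasone, a glucocorticoid that sets the clocks of cultured cells to one phase, for 2 hours and were collected 12 hours later, so both groups carry the same hormone treatment and show a single time point. Levels are given as CPM (counts per 1000000 counts of a library, its size scaled by TMM), values of the 3 replicates are listed in the order 1, 2 and 3, errors are SD with n = 3 per group, and folds are senescent over control unless stated otherwise.

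The libraries held 50288454 to 82229553 counts, and a count of 0 allows up to 0.0613 CPM in the shallowest of them, for counting error only. Nothing in the sources states that replicates came from separate cultures or animals, so p-values measure the spread between these samples. Between libraries of a group, the median squared difference of counts was 1.81 to 33.0 times what counting noise gives, so every pair differed beyond counting noise, and both pairs with senescent replicate 3 stood highest (24.8 and 33.0). The labels were checked with the proliferation gene *Mki67* (589 ± 17.3 CPM for control, 9.60 ± 1.49 CPM for senescent cells), the lamin gene *Lmnb1* (79.4 ± 1.85 CPM for control, 6.76 ± 0.285 CPM for senescent cells), and the cell cycle inhibitor genes *Cdkn1a* (log2 fold change 2.33) and *Cdkn2a* (1.90). All 8 fibroblast markers were present, summing to 14035 to 15897 CPM for control and 5844 to 6973 CPM in senescent libraries. *Col1a1*, *Col1a2*, *Vim* and *Pdgfra* were lower, while *Dcn* (11.3-fold), *Thy1* (2.78-fold) and *Lum* (1.80-fold) were higher and *Pdgfrb* did not pass. The 4 chondrocyte markers summed to 4593 to 5115 CPM for control and 332 to 414 CPM for senescent libraries, while the 4 of 5 macrophage markers in the table (8.02 to 8.79 CPM summed in control, 13.6 to 16.1 CPM in senescent) and the 4 endothelial markers (2.43 to 2.83 and 7.38 to 8.08 CPM) stood higher at low levels. Keratinocyte markers summed to 15.8 to 16.5 and 7.68 to 7.78 CPM, and Schwann cell and melanocyte markers to 8.48 to 10.1 and 10.4 to 11.8 CPM. Fewer cells of a type and less RNA per cell cannot be told apart in bulk RNA, and the part of these shifts in the chaperone values was not tested.

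Of the 73 members, 66 had enough counts for the test. At an adjusted p under 0.05 (edgeR's quasi-likelihood test, two-sided, Benjamini-Hochberg adjustment over 17589 genes), 32 members (48.5%) were higher and 18 (27.3%) lower in senescent cells, and 16 did not pass. Of all genes tested, 36.2% were higher and 34.1% lower, together 70.3%, so senescent cells differed from control cells at most genes and 75.8% of the tested members stand close to that share. The median log2 fold change of the tested members was 0.17, with quartiles of -0.28 and 0.69, against 0.0085 for all genes tested. With no filter beyond 1 count the order turned, the members' median being 0.20 and that of all genes 0.32. Changes over 2-fold with an unadjusted p under 0.05, the limit of the study's methods, were seen for 7 members upward and 2 downward, which is 10.6% and 3.03% against 17.8% and 12.3% of all genes. The 7 include *Dnajc6*, which passed the filter through the senescent libraries alone. Control and senescent values did not overlap in 55 of the 66 (83.3%), against 75.3% of all genes tested. No test was made on the members as a set, and these shares describe them only.

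Senescent replicate 3 was the highest of its group for 40 of the 66 tested members, replicate 1 for 6 and replicate 2 for 20. Without it, 34 members were higher and 23 lower, while the called share of all genes rose to 77.0%, and *Dnajb6*, *Dnajc7*, *Dnajc8*, *Dnajc13* and *Dnajb3* were then called lower, at log2 fold changes from -0.39 to -0.14, and *Dnajb2* and *Hspe1* higher. The median log2 fold change of the tested members was then 0.10.

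**Figure D1:**
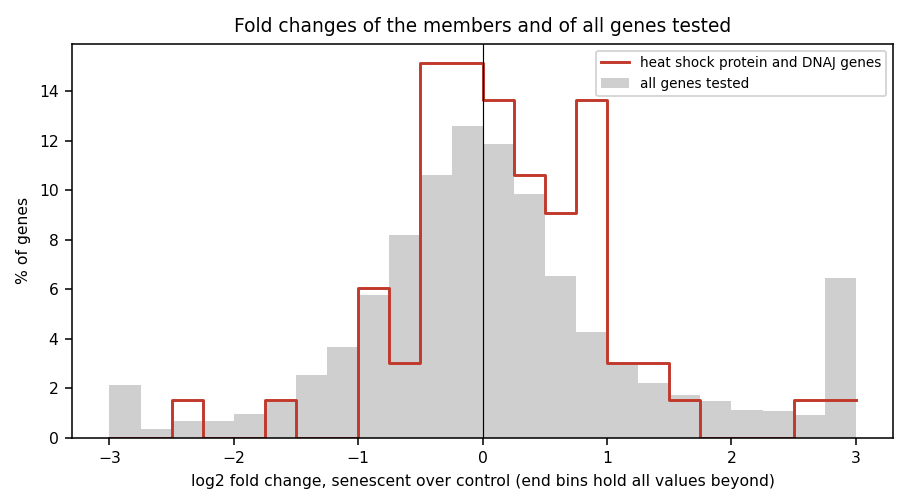
Share of genes (%, vertical axis) by log2 fold change of senescent over control (horizontal axis, bins of 0.25, end bins holding all values beyond) for all 17589 genes tested (grey bars) and the 66 tested heat shock protein and DNAJ genes (red line). Of the members, 7 lie above 1 and 2 below -1.

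In total, the members took 1.18%, 1.12% and 1.11% of all counts in the control libraries and 1.28%, 1.24% and 1.37% in the senescent libraries, so the highest control library lay below the lowest senescent one. On the TMM scale their sums were 11363 to 12014 CPM for control and 12118 to 13371 CPM for senescent libraries. The 6 genes with the most counts, *Hsp90ab1*, *Hspa8*, *Hsp90b1*, *Hspa5*, *Hsp90aa1* and *Hspa9*, made up 0.796% ± 0.0293 of the counts in control and 0.864% ± 0.0450 in senescent cells, and the groups overlapped. On the TMM scale these 6 summed to 7967 to 8475 CPM in control and 8047 to 8890 CPM in senescent libraries. Per kilobase of gene length, *Hsp90ab1* was first in both groups (672 CPM per kilobase in control, 636 in senescent cells). *Hsp90b1* followed it in control cells (569), but in senescent cells (322) it stood behind *Hspa8* (from 373 to 496) and *Hspa5* (from 337 to 362). At the other end, *Hspb9*, *Dnajb8* and *Dnajc5g* had 0 counts in all 6 libraries, and *Hspa1l*, *Hspb3*, *Dnajb7* and *Dnajb13* had between 0 and 17 counts and were below the filter.

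**Figure D2:**
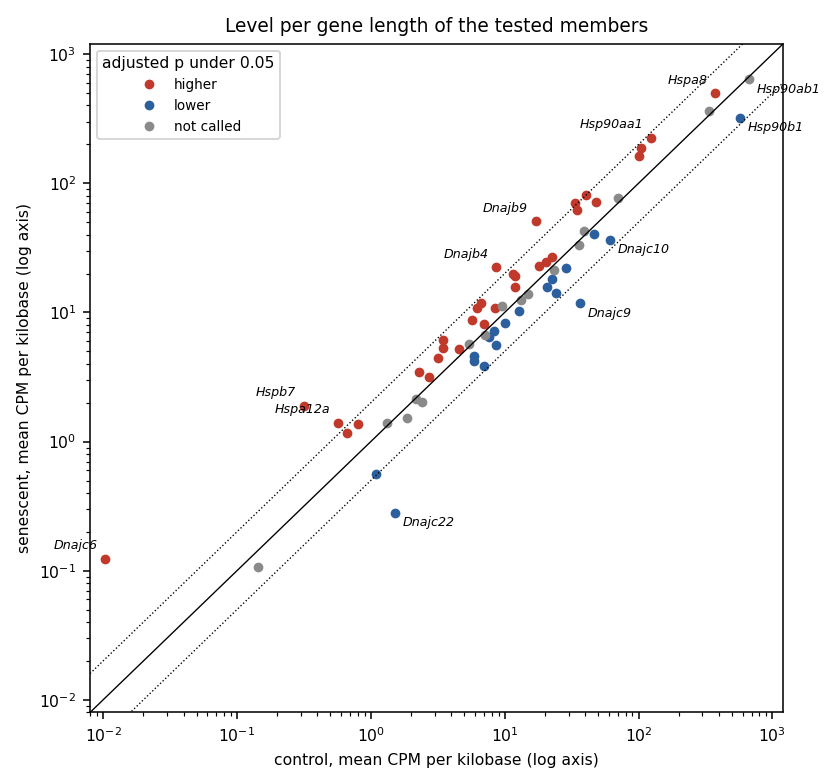
Mean level in senescent cells against mean level in control cells, both in CPM per kilobase of gene length on log axes, for the 66 tested members. The solid line marks equal levels, the dotted lines 2-fold differences, and colour the call at an adjusted p under 0.05, with *Dnajb9*, *Dnajb4*, *Hspb7*, *Hspa12a* and *Dnajc6* among those above the upper dotted line and *Dnajc9* and *Dnajc22* below the lower one. *Dnajc6* passed the filter through the senescent libraries alone.

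**Figure D3:**
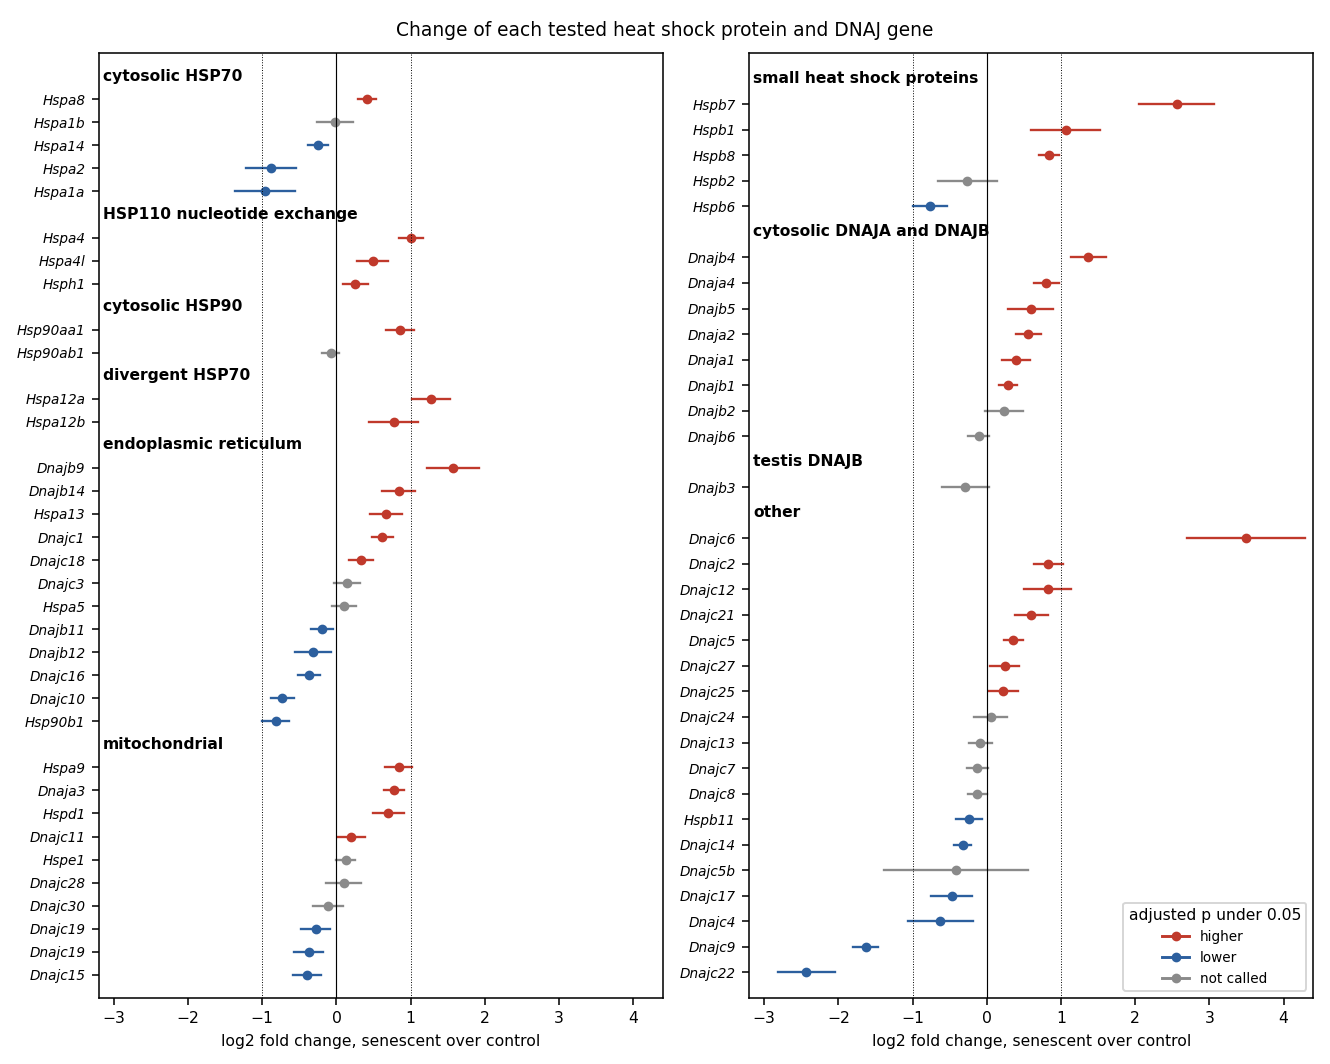
Log2 fold change of senescent over control (horizontal axis, points) with its 95% confidence interval (lines) for each tested member, grouped by class and coloured by the call at an adjusted p under 0.05. Dotted lines mark 2-fold, and most members lie between them, with *Dnajc6*, *Hspb7* and *Dnajb9* farthest to the right and *Dnajc22* and *Dnajc9* farthest to the left. The position of *Dnajc6* is a description, as it passed the filter through the senescent libraries alone.

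Among the cytosolic HSP70 genes, the constitutive form rose and the stress-inducible form did not. *Hspa8* (chromosome 9 from 40800984 to 40805200 of mm10) encodes HSC70, the HSP70 that cells make without stress. It stood at 1581, 1552 and 1522 CPM across the control libraries and 2054, 1992 and 2143 CPM across the senescent ones. All senescent libraries were above all control libraries, with a log2 fold change of 0.41 (SE 0.053, adjusted p = 0.000219). Of the 100-base stretches of its transcripts, 28.2% occur in other genes as well. The inducible genes *Hspa1a* and *Hspa1b* lie next to each other on chromosome 17, from 34969190 to 34972156 and from 34956436 to 34959238. *Hspa1a* was at 2.65, 3.23 and 3.94 CPM across the control libraries and 1.44, 1.88 and 1.68 CPM across the senescent ones. *Hspa1b* was at 5.41, 6.63 and 6.27 CPM across the control libraries and 5.72, 6.02 and 6.39 CPM across the senescent ones. The first was lower in every senescent library, with a log2 fold change of -0.96 (SE 0.17, adjusted p = 0.00146), while the values of the second overlapped (-0.015, SE 0.10, adjusted p = 0.908). Neither gene reached 7 CPM in any library.

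The separate values of these neighbours are uncertain because their sequences are nearly the same. Of the 100-base stretches in *Hspa1a* transcripts, 47.1% also occurred in *Hspa1b*, and of those in *Hspa1b* 49.9% in *Hspa1a*, so reads of the length used could not always be assigned. Summed, both rows came to 9.38 ± 1.16 CPM for control and 7.71 ± 0.482 CPM for senescent samples, which missed the threshold (log2 fold change -0.28, SE 0.11, adjusted p = 0.0513). Their promoters are close copies too: over the 250 bases before the start site, from the RefSeq promoter table for GRCm38.p6 (the assembly that mm10 names), the windows differ at 3 positions, shown in capitals. Both sequences are given 5′ to 3′ on the minus strand, at chr17:34972157-34972406 and chr17:34959239-34959488.
Hspa1a: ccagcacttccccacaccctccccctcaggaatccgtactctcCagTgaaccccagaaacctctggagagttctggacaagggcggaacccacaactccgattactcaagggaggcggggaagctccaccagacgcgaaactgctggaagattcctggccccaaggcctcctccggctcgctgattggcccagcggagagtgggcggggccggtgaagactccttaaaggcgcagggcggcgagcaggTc
Hspa1b: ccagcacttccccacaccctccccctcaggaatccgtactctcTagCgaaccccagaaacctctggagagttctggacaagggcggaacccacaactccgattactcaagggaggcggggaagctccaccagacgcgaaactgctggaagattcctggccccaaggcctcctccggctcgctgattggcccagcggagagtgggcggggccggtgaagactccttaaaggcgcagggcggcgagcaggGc

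The other 2 tested cytosolic HSP70 genes, *Hspa2* and *Hspa14*, fell. *Hspa2*, known for its role in spermatogenesis, was at 17.4, 17.6 and 18.2 CPM across the control libraries and 10.8, 10.8 and 7.41 CPM across the senescent ones. Its groups did not overlap, and its log2 fold change was -0.88 (SE 0.15, adjusted p = 0.000914). *Hspa14*, which works at the ribosome, changed by -0.25 (SE 0.056, adjusted p = 0.00428). The divergent HSP70 genes *Hspa12a* and *Hspa12b* both rose from low levels. *Hspa12a* was at 3.19, 3.68 and 3.00 CPM across the control libraries and 7.33, 8.33 and 8.25 CPM across the senescent ones, and the log2 fold change was 1.27 (SE 0.11, adjusted p = 2.47e-05). *Hspa12b* changed by 0.77 (SE 0.14, adjusted p = 0.00161), again without overlap.

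All 3 genes for HSP110 proteins, the nucleotide exchange factors of HSP70, were higher in senescent cells, as were 36.2% of all genes tested. *Hspa4* (chromosome 11 from 53259814 to 53300457), with the highest CPM of them, was at 229.96, 220.3 and 218 CPM across the control libraries and 435, 422 and 484 CPM across the senescent ones. The groups were far apart relative to their spread, with a log2 fold change of 1.00 (SE 0.068, adjusted p = 5.85e-06). *Hspa4l* rose by 0.49 (SE 0.092, adjusted p = 0.00178) and *Hsph1*, an HSF1 target, by 0.26 (SE 0.072, adjusted p = 0.0129) on the log2 scale. The call of *Hsph1* was lost without control replicate 2 (adjusted p = 0.0538) or control replicate 3 (0.0535). Within libraries, the ratio of *Hspa4* to *Hsph1* counts was 1.39, 1.42 and 1.40 in control and 2.34, 2.39 and 2.34 in senescent libraries.

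The cytosolic HSP90 genes parted. *Hsp90aa1* (chromosome 12 from 110690605 to 110702728), the stress-inducible isoform, stood at 513, 479 and 464 CPM across the control libraries and 849, 818 and 976 CPM across the senescent ones. Its increase was clear of the replicate spread, at 0.86 (SE 0.081, adjusted p = 3.73e-05) on the log2 scale. Of the 100-base stretches in its transcripts, 38.0% occurred in other genes' transcripts, so part of its reads could belong elsewhere. *Hsp90ab1* (chromosome 17 from 45567775 to 45573271), the constitutive isoform, was at 2047, 2007 and 1991 CPM across the control libraries and 1951, 1907 and 1864 CPM across the senescent ones. Each senescent library was slightly below each control library, but the difference of -0.079 (SE 0.049, adjusted p = 0.183) did not pass, with a 95% interval of -0.19 to 0.035. The ratio of *Hsp90aa1* to *Hsp90ab1* counts was 0.251, 0.238 and 0.233 in control and 0.435, 0.429 and 0.524 in senescent libraries. Ratios of this kind do not depend on library scaling, and the pairs were chosen after their values were known, so no test was made on them.

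**Figure D4:**
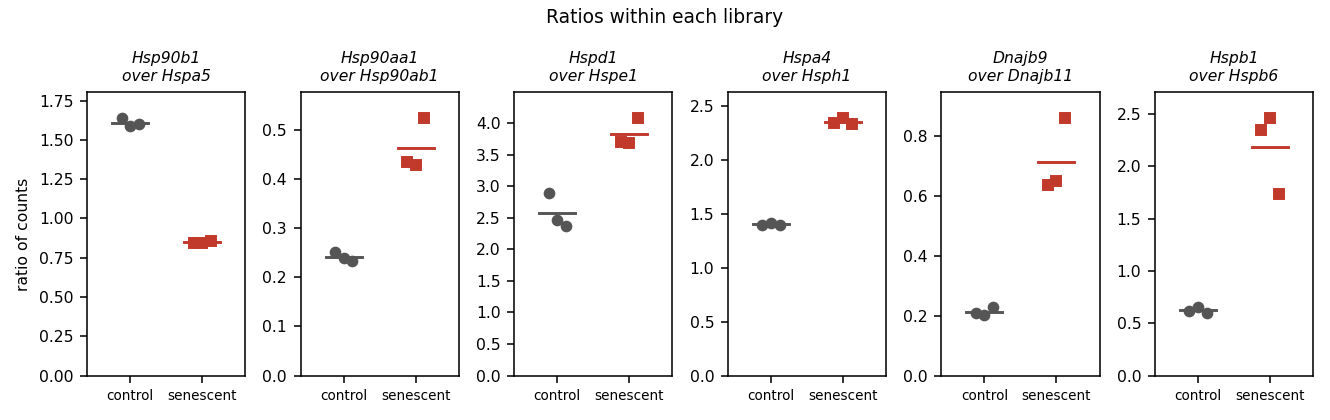
Ratio of the counts of a pair of members within each library (vertical axis, from 0) for 6 pairs, with control libraries as grey circles, senescent libraries as red squares and group means as lines. Control and senescent libraries are apart in every panel, and *Hsp90b1* over *Hspa5* is the pair in which senescent libraries were lower.

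Of 12 tested ER genes, 5 were higher, 5 lower and 2 not called, 41.7% in each direction against 36.2% and 34.1% of all genes. *Hsp90b1* (chromosome 10 from 86690209 to 86705509) encodes GRP94, the HSP90 of the ER lumen, which folds integrins and Toll-like receptors. It was at 2429.7, 2240.1 and 2210.03 CPM across the control libraries and 1257, 1211 and 1429 CPM across the senescent ones. Every senescent library lay below every control library, and the log2 fold change was -0.82 (SE 0.077, adjusted p = 3.85e-05). *Hspa5* (chromosome 2 from 34771970 to 34777547) encodes BiP, the HSP70 of the ER. It was at 1483, 1409.6 and 1377 CPM across the control libraries and 1489, 1435 and 1663 CPM across the senescent ones, the groups overlapped, and the difference of 0.10 (SE 0.07, adjusted p = 0.217) did not pass, except when library size alone was used for scaling (0.18, adjusted p = 0.0487). The ratio of *Hsp90b1* to *Hspa5* counts was 1.64, 1.59 and 1.60 in control and 0.844, 0.844 and 0.859 in senescent libraries, so in the first group *Hsp90b1* had more counts than *Hspa5* and in the second fewer.

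Among the other ER genes, mainly J proteins that serve BiP, both directions were found. *Dnajb9* (chromosome 12 from 44205897 to 44210068), which encodes ERdj4, a target of the unfolded protein response factor XBP1, was at 32.6, 30.7 and 32.5 CPM across the control libraries and 80.3, 83.3 and 119.96 CPM across the senescent ones. Senescent replicate 3 was the highest, every senescent library was above every control library, and the log2 fold change was 1.57 (SE 0.15, adjusted p = 4.40e-05). *Dnajc10*, which encodes the disulfide reductase ERdj5, was at 317, 296 and 300.2 CPM across the control libraries and 178, 173 and 199 CPM across the senescent ones. It fell by 0.73 (SE 0.069, adjusted p = 3.97e-05) on the log2 scale, without overlap. *Dnajb11*, which encodes ERdj3, had a log2 fold change of -0.19 (SE 0.065, adjusted p = 0.0291) and lost its call in 8 of 13 alternatives (adjusted p from 0.0554 to 0.157), including those without control replicate 1 (0.0995) or 2 (0.0824) or senescent replicate 1 (0.103) or 2 (0.0904). *Dnajc3*, which encodes an inhibitor of eIF2α kinases, had a log2 fold change of 0.14 (SE 0.077, adjusted p = 0.136) and was called higher with library size alone (adjusted p = 0.0337). Higher levels were also measured for *Hspa13* (0.66, SE 0.093, adjusted p = 0.00037), *Dnajc1* (0.62, SE 0.061, adjusted p = 5.17e-05), the ER membrane protein gene *Dnajb14* (0.84, SE 0.095, adjusted p = 0.000111) and *Dnajc18* (0.33, SE 0.07, adjusted p = 0.00323). *Dnajb12*, the relative of *Dnajb14* in the same membrane, was lower (-0.32, SE 0.11, adjusted p = 0.0254), as was *Dnajc16* (-0.37, SE 0.065, adjusted p = 0.00122). The count of lower ER genes fell to 3 when libraries were scaled by size alone, with at least 10 counts in every library, and without control replicate 2 or senescent replicate 1, since *Dnajb11* and *Dnajb12* then missed the threshold. The call of *Dnajb12* was lost without control replicate 3 as well (0.0825, the highest of its 5 lost calls, which start at 0.0524).

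The promoters of *Hspa5*, *Hsp90b1* and *Dnajc3* held the ER stress element, the sequence through which the unfolded protein response acts. It was searched as CCAAT, 9 bases of any kind and CCACG, on both strands of the RefSeq windows, each with 250 bases before and 50 after a start site. Such a window was found for 58 of the 72 member names, and 3 of these (5.17%) held the element, against 0.137% of 27025 genes in the table. Of these, *Hsp90b1* fell and the other two did not pass. The stretches are printed because they carry the element, whose fixed letters are in capitals. They lie at chr2:34772020-34772049 on the plus strand, chr10:86705525-86705664 on the minus strand with 2 copies, and chr14:118937822-118937851 on the plus strand.
Hspa5: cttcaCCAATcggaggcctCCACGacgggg
Hsp90b1: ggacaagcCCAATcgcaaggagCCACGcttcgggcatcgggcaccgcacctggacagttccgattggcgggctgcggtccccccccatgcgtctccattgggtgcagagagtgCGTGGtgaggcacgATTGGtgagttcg
Dnajc3: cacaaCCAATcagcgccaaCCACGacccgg

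TGACTCA, a binding sequence of the AP-1 factors, was found in the window of *Hspa5* alone among the members (1.72%), against 5.95% of all genes.

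The E-box CACGTG, through which BMAL1 binds, occurred in 6 member windows (10.3%), those of *Dnajb9*, *Dnajc1*, *Dnajc16*, *Dnajc8*, *Hspd1* and *Hsph1*, and in 8.09% of all genes. Of these 6 genes, 4 were higher, 1 lower and 1 not called, while 36.2% of all genes tested were higher and 34.1% lower. The *Dnajb9* copy is shown, as the one beside the largest change, with the E-box in capitals (chr12:44210159-44210188, minus strand). A match of letters describes the sequence and says nothing on binding in these cells.
Dnajb9: aacaacagttttcCACGTGcgcgtagggcg

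Of 10 tested mitochondrial rows, 4 were higher, 3 lower and 3 not called, near the 36.2% and 34.1% of all genes. *Dnajc19* makes up 2 of the 3 lower rows. *Hspa9* (chromosome 18 from 34937414 to 34954357) encodes mortalin, the HSP70 that pulls proteins into the mitochondrial matrix. It was at 423, 406 and 402 CPM across the control libraries and 700.2, 685 and 815 CPM across the senescent ones, all senescent libraries being above control, with a log2 fold change of 0.84 (SE 0.076, adjusted p = 3.29e-05). Its J protein gene *Dnaja3* rose from 45.2 ± 0.477 to 77.5 ± 3.09 CPM, by 0.78 (SE 0.056, adjusted p = 8.11e-06). In the import motor, by contrast, both *Dnajc19* rows, which overlap on chromosome 3, were lower, at -0.28 (SE 0.084, adjusted p = 0.0169) for the longer and -0.37 (SE 0.085, adjusted p = 0.00463) for the shorter row, as was *Dnajc15* (-0.39, SE 0.082, adjusted p = 0.00293). The call of the longer *Dnajc19* row was lost in 5 alternatives (adjusted p from 0.0508 to 0.0693), including those without control replicate 1 or 2 or senescent replicate 1. *Dnajc11* was higher at 0.20 (SE 0.078, adjusted p = 0.0478), a call lost in 7 alternatives (adjusted p from 0.0742 to 0.154) and whenever any library but senescent replicate 3 was left out. *Dnajc28* (0.417) and *Dnajc30* (0.295) did not pass (adjusted p in parentheses).

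*Hspd1* and *Hspe1*, which encode HSP60 and HSP10, are transcribed away from each other from a shared promoter on chromosome 1, and *Hspd1* alone passed the test. *Hspd1* (from 55077835 to 55088243) was at 291, 258 and 249 CPM across the control libraries and 411, 402 and 480.01 CPM across the senescent ones. *Hspe1* (from 55088132 to 55091307) was at 100.3, 104 and 105 CPM across the control libraries and 111, 109 and 118 CPM across the senescent ones. In both, senescent libraries were all above control. *Hspd1* rose by 0.70 (SE 0.09, adjusted p = 0.000237) on the log2 scale, whereas *Hspe1* had 0.12 (SE 0.057, adjusted p = 0.0805) and passed only with RLE scaling, scaling by library size, at least 10 counts throughout, or without senescent replicate 3 (adjusted p from 0.0127 to 0.0494). The ratio of *Hspd1* to *Hspe1* counts was 2.90, 2.47 and 2.36 in control and 3.69, 3.69 and 4.08 in senescent libraries. The rows overlap by a short stretch, and 23.4% of the 100-base stretches of *Hspd1* transcripts and 10.0% of those of *Hspe1* occur in other genes.

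Before the start of *Hspe1*, within the *Hspd1* row, lies a pair of overlapping heat shock elements, the sequence that HSF1 binds. The element was searched in its form of 3 units, GAA, TTC and GAA with 2 bases of any kind between them, on both strands, and found in the windows of *Hspd1*, *Hspe1*, *Hsph1* and *Dnajb6*, which is 6.90% of the 58 members with a window and 0.662% of all genes. The element of *Hspd1* and *Hspe1* is the same one, seen from either side, at chr1:55088053-55088082, and is given on the plus strand, the strand of *Hspe1*. In *Hsph1* the element lies after the start site and is not shown. For *Dnajb6*, whose RNA did not pass the test, the stretch is at chr5:29735843-29735872 on the plus strand. Capitals mark the units.
Hspe1: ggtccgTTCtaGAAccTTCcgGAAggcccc
Dnajb6: cagctccgaGAAtcTTCcgGAAcgctagac

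A single inverted pair of units, GAANNTTC, stood in 14 member windows (24.1%, against 9.04% of all genes), among them *Hspa1a*, *Hspa1b*, *Hspb1*, *Hspb6*, *Hspb8*, *Dnaja1* and *Dnaja4*. The pair in the other order, TTCNNGAA, stood in 6 (10.3%, against 9.60%). Every element of 3 units holds both pairs. Of the 12 tested members with GAANNTTC, 7 were higher and 2 lower, and of the 39 with a window without it, 16 were higher and 14 lower. The shares over all genes tested were 36.2% and 34.1%. *Hspd1* and *Hspe1* hold the same match, and the windows of *Hspa1a* and *Hspa1b* are close copies, so the 12 are not all separate. Whether the motif goes with the direction was not tested.

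Small heat shock proteins showed some of the larger changes. *Hspb7* (chromosome 4 from 141420779 to 141425311), best known from heart and skeletal muscle, was at 0.762, 0.987 and 0.879 CPM across the control libraries and 5.63, 6.17 and 3.85 CPM across the senescent ones. All senescent libraries were several times above control, senescent replicate 3 the least, and the log2 fold change was 2.56 (SE 0.22, adjusted p = 2.15e-05). Of 6 skeletal muscle markers, 4 were under 1 CPM in all libraries, and the list summed to 15.5 to 20.9 CPM for control and 15.4 to 28.0 CPM in senescent libraries. *Acta1* made up most of that sum and did not pass (adjusted p = 0.442), but some low markers were higher in every senescent library. *Des* had 18, 15 and 8 counts across the control libraries and 55, 85 and 78 counts across the senescent ones (1.94, SE 0.26, adjusted p = 0.000271). *Myh3* had 0, 0 and 0 counts across the control libraries and 23, 26 and 34 counts across the senescent ones, and *Myod1* 0, 0 and 0 counts across the control libraries and 6, 3 and 10 counts across the senescent ones. *Myog* (1, 0 and 0 counts in control, 3, 5 and 1 in senescent libraries) and *Ckm* (0, 0 and 2, then 2, 6 and 6) overlapped between the groups. *Myod1*, *Myog* and *Ckm* were below the filter. The part of these markers in the *Hspb7* values was not tested. *Hspb1* (chromosome 5 from 135887919 to 135889563), the gene of HSP25, was at 31.7, 37.7 and 33.9 CPM across the control libraries and 79.4, 88.1 and 49.0 CPM across the senescent ones. Senescent replicate 3 was again the lowest of its group but above all control libraries, and the log2 fold change was 1.07 (SE 0.20, adjusted p = 0.00176). As 44.0% of the 100-base stretches of *Hspb1* transcripts occur in the pseudogene *Hsp25-ps1*, its reads could be split.

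*Hspb8*, whose protein forms a complex with BAG3 in the disposal of damaged filaments, was at 67.7, 68.6 and 67.7 CPM across the control libraries and 124, 125 and 115 CPM across the senescent ones. It rose without overlap, by 0.84 (SE 0.058, adjusted p = 6.38e-06) on the log2 scale. *Hspb6*, the gene of HSP20, went the other way, with 51.1, 57.6 and 57.0 CPM across the control libraries and 33.8, 35.8 and 28.2 CPM across the senescent ones. Its log2 fold change was -0.76 (SE 0.10, adjusted p = 0.000247). The ratio of *Hspb1* to *Hspb6* counts was 0.619, 0.655 and 0.594 in control and 2.35, 2.46 and 1.74 in senescent libraries. *Hspb2* overlapped between groups (-0.26, SE 0.17, adjusted p = 0.205). *Hspb11*, a part of the intraflagellar transport complex despite its name, was lower at -0.23 (SE 0.076, adjusted p = 0.0245), a call lost in 8 alternatives (adjusted p from 0.0549 to 0.103) and whenever any library but senescent replicate 3 was left out.

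**Figure D5:**
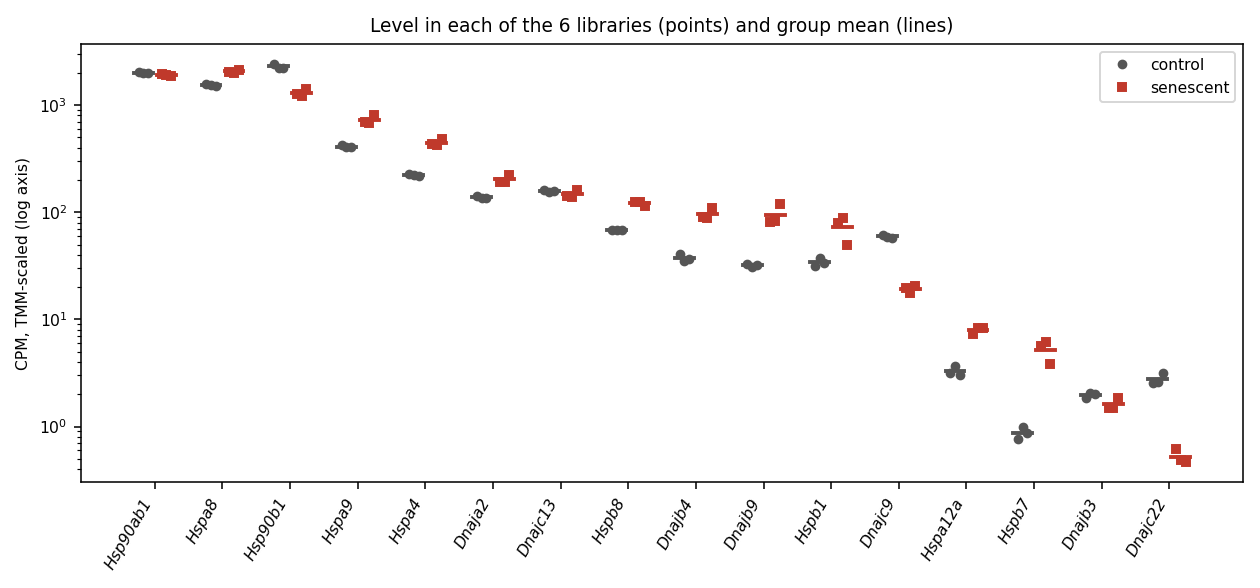
Level of 16 members in each library (vertical axis, TMM-scaled CPM on a log axis), ordered by mean level, with control libraries as grey circles, senescent libraries as red squares and group means as lines. These are the gene with the highest CPM in each class and the members picked for their change. The latter had to be over 2-fold changed with an adjusted p under 0.05, a mean of at least 1 CPM and no overlap between the groups. Absence of overlap is therefore no finding for them. Among the genes shown for their level, the groups overlap in *Dnajc13* alone.

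The cytosolic J proteins of the A and B types were mostly higher. Of the 8, 6 rose (75%, against 36.2% of all genes), none fell (against 34.1%), and *Dnajb2* and *Dnajb6* did not pass. All 4 Dnaja genes, *Dnaja3* of the mitochondria included, were among the risers under TMM, RLE and library size scaling alike. *Dnajb4* (chromosome 3 from 152178511 to 152210279) was at 40.4, 35.4 and 36.3 CPM across the control libraries and 90.2, 89.1 and 110.5 CPM across the senescent ones. No control library reached a senescent one, and the log2 fold change was 1.37 (SE 0.10, adjusted p = 9.32e-06). *Dnaja2*, with the highest CPM of them, was at 142, 135 and 135 CPM across the control libraries and 193, 191 and 223 CPM across the senescent ones. Its senescent values were all above control, with a change of 0.56 (SE 0.074, adjusted p = 0.000264). *Dnajb1*, the J protein that HSF1 induces with *Hspa1a*, was at 45.3, 46.0 and 45.9 CPM across the control libraries and 55.4, 55.9 and 56.4 CPM across the senescent ones. The spread was so small that a change of 0.29 (SE 0.052, adjusted p = 0.00133) was still clear of it. Increases were measured in *Dnaja4* (0.80, SE 0.07, adjusted p = 2.46e-05), *Dnajb5* (0.59, SE 0.13, adjusted p = 0.00402) and *Dnaja1* (0.40, SE 0.082, adjusted p = 0.00298). *Dnajb6* had a log2 fold change of -0.11 (SE 0.061, adjusted p = 0.151) and was called lower only without senescent replicate 3 (adjusted p = 0.00187). *Dnajb2* had 0.23 (SE 0.11, adjusted p = 0.0974) and was called higher without that library (1.83e-05) and with scaling by library size (0.0353).

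The remaining members are mainly J proteins of the C type, of which each has its own task. Of 28 tested Dnajc rows, 10 were higher, 10 lower and 8 not called, 35.7% in each direction and so near the background of 36.2% and 34.1%, with a median log2 fold change of -0.096. *Dnajc9* (chromosome 14 from 20384638 to 20388910), whose protein chaperones newly made histones, was at 61.1, 59.2 and 58.0 CPM across the control libraries and 19.6, 17.6 and 20.4 CPM across the senescent ones. It was lower in every senescent library, with a log2 fold change of -1.63 (SE 0.073, adjusted p = 6.03e-07), the smallest adjusted p of all members. *Dnajc22* (chromosome 15 from 99093170 to 99104737) was at 2.57, 2.61 and 3.19 CPM across the control libraries and 0.613, 0.492 and 0.462 CPM across the senescent ones. Its decrease, at -2.43 (SE 0.17, adjusted p = 6.79e-06), was the deepest among tested members, although from a low level. *Dnajc6*, which encodes auxilin, the neuronal uncoating factor of clathrin vesicles, had 4, 5 and 1 counts across the control libraries and 43, 54 and 62 counts across the senescent ones. It stayed under 1 CPM and passed the filter through the senescent libraries alone, so its fitted log2 fold change of 3.49 (SE 0.34, adjusted p = 4.78e-05) is given as a description. With at least 10 counts in every library it was not tested, and 6 members were then over 2-fold higher.

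*Dnajc2*, which sits at the exit of the ribosome, rose by 0.83 (SE 0.086, adjusted p = 6.53e-05), and *Dnajc21*, which acts in the making of the large subunit, by 0.60 (SE 0.10, adjusted p = 0.000779). *Dnajc5*, the gene of the vesicle protein CSP, rose by 0.36 (SE 0.057, adjusted p = 0.000674), and *Dnajc12* by 0.82 (SE 0.13, adjusted p = 0.000858). *Dnajc25* (0.22, SE 0.084, adjusted p = 0.0441) and *Dnajc27* (0.24, SE 0.082, adjusted p = 0.0297) were higher in calls that 5 alternatives each removed. For *Dnajc25* these include leaving out any control library (adjusted p from 0.0648 to 0.144), and for *Dnajc27* leaving out control replicate 1 (0.101), control replicate 3 (0.114) or senescent replicate 1 (0.0571). Lower values were found for *Dnajc14* (-0.32, SE 0.05, adjusted p = 0.00059), the splicing-related *Dnajc17* (-0.47, SE 0.12, adjusted p = 0.00845) and *Dnajc4* (-0.63, SE 0.19, adjusted p = 0.0174, lost without control replicate 2 at 0.0638 or control replicate 3 at 0.0527). *Dnajc13*, an endosome protein gene with the highest CPM of these, was at 161, 153 and 157 CPM across the control libraries and 142, 140.2 and 161 CPM across the senescent ones. Its groups overlapped and the difference of -0.085 (SE 0.069, adjusted p = 0.298) did not pass, with a 95% interval of -0.24 to 0.075. *Dnajc7* (0.0974), *Dnajc8* (0.0718), *Dnajc24* (0.638) and *Dnajc5b* (0.405) did not pass either (adjusted p in parentheses). Of the B types known from testis, *Dnajb3* alone was tested, at 1.84, 2.06 and 2.00 CPM across the control libraries and 1.48, 1.50 and 1.84 CPM across the senescent ones. Its senescent libraries were all below control, replicate 3 narrowly, yet -0.29 (SE 0.14, adjusted p = 0.0902) did not pass.

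Chaperone partners outside the rule were read from a list of 55 genes, which covers regulators, co-chaperones and other chaperones. Of 53 tested, 25 (47.2%) were higher and 7 (13.2%) lower, against 36.2% and 34.1% of all genes, with a median log2 fold change of 0.20. Of the heat shock transcription factor genes, *Hsf1* was at 30.0 ± 2.87 CPM for control, 34.1 ± 4.98 CPM for senescent cells and did not pass (0.19, SE 0.12, adjusted p = 0.204), except without senescent replicate 3 (0.31, adjusted p = 0.000845), and *Hsf2* rose by 0.41 (SE 0.11, adjusted p = 0.012). *Bag3*, an HSF1 target, had 0.088 (SE 0.082, adjusted p = 0.361) and was called higher only without senescent replicate 3 (0.0039). *Cryab*, the gene of the small heat shock protein alpha-B crystallin, was at 74.8, 80.2 and 77.8 CPM across the control libraries and 172, 179.8 and 129 CPM across the senescent ones, with no overlap and a change of 1.05 (SE 0.12, adjusted p = 0.000126). *Grpel2*, a nucleotide exchange factor of mitochondrial HSP70, rose by 1.01 (SE 0.075, adjusted p = 1.04e-05) on the log2 scale. The other such gene of the list, *Grpel1*, rose by 0.55 (SE 0.059, adjusted p = 7.66e-05). The myosin chaperone gene *Unc45b* had 3, 0 and 0 counts across the control libraries and 58, 68 and 55 counts across the senescent ones, all control libraries lying at or under the floor of 3 counts, and a fold is left out.

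Of the 8 subunit genes of the cytosolic chaperonin TRiC, 5 were higher and none lower, with log2 fold changes of all 8 from -0.089 to 0.35. The called share was thus 62.5%, against 70.3% of all genes (36.2% higher and 34.1% lower). The deepest decreases were those of *Serpinh1*, the collagen chaperone HSP47 of the ER, and *Fkbp5*, an HSP90 co-chaperone and glucocorticoid target. *Serpinh1* was at 1897, 2223 and 2213 CPM across the control libraries and 696, 753 and 542 CPM across the senescent ones. The log2 fold change was -1.67 (SE 0.13, adjusted p = 1.19e-05), and no senescent library reached a control value. *Fkbp5* was at 51.7, 52.1 and 47.8 CPM across the control libraries and 16.5, 16.5 and 15.6 CPM across the senescent ones. It changed by -1.64 (SE 0.067, adjusted p = 3.39e-07), both groups having received the same glucocorticoid.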

How the data were processed

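RNA was measured in 3 control and 3 senescent samples. The authors made stranded libraries from 200 ng of RNA, sequenced both ends over 100 bases, ran the MAPRSeq pipeline (STAR on mm10, then Subread for gene counting), and deposited raw counts per gene. The deposited gene lengths served for values per kilobase. Strand and multi-mapping settings of the counting are not given in the sources used here, and 34 of the 73 members overlap another row, so their values, like those of near-identical copies, are uncertain.

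Groups and replicate numbers came from sample titles. Genes were kept by filterByExpr, scaled by TMM and compared by edgeR 4.0.16 (R 4.3.3) with its robust quasi-likelihood test and group as the only term, over all genes, two-sided, with Benjamini-Hochberg adjustment. The study's methods name edgeR without the test. The fit was first tested on simulated data. Alternatives were RLE scaling, library size alone, no filter, a floor of 10 counts in all libraries, DESeq2 1.42.0, the exact test of edgeR, a replicate block, each library left out, and *Hspa1a* and *Hspa1b* summed.

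Members, classes, partner and marker lists were chosen with earlier results of these data known. Values in every library are given for members past 2-fold with an adjusted p under 0.05, at least 1 CPM and no overlap, and for the gene with the highest CPM in each class. *Hspa1a*, *Hspa1b*, *Hspa2*, *Hsp90aa1*, *Hspa5*, *Dnajc10*, *Hspd1*, *Hspe1*, *Hspb6*, *Dnajb1* and *Dnajc6* and the pairs for ratios were added after their values were seen. The 100-base stretches came from GENCODE vM21 transcripts.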

Additional observations from a re-analysis of the deposited data

How the results depend on the processing

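Of the 50 members called, 40 kept call and direction in every alternative that gave a value, and no called member changed sign. The 10 that lost the call in at least 1 were *Hspa1a* (when summed with *Hspa1b*), *Hsph1*, *Dnajb11*, *Dnajb12*, *Dnajc4*, *Dnajc11*, *Dnajc19*, *Dnajc25*, *Dnajc27* and *Hspb11*. Of 16 members not called, 9 passed in at least 1. The count of members over 2-fold lower was 2 to 4 when single libraries were left out (4 without senescent replicate 2). In the main fit it was 2 of the 66 tested, where 12.3% of all genes tested were over 2-fold lower. The median log2 fold change of the tested members moved from 0.17 to 0.25 with library size alone, to 0.22 with at least 10 counts in every library, and over 0.10 to 0.17 with single libraries left out, lowest without senescent replicate 3. *Hspa1b*, near 0 and never called, changed sign with RLE (0.0058), library size alone (0.063), at least 10 counts (0.034), DESeq2 (0.0059) and, over -0.098 to 0.047 with single libraries left out, without control replicate 2 (0.047) or senescent replicate 1 (0.025). *Dnajc24*, over -0.0098 to 0.13, did so without control replicate 2. Correlations between same-numbered replicates, of their deviations from the group means, were -0.145, 0.135 and -0.120 for numbers 1, 2 and 3. With means over 3 libraries and senescent replicate 3 standing apart, these values cannot decide whether the numbers pair the samples. With the replicate block, 29 members were higher and 15 lower, while 66.1% of all genes tested were called in either direction. Members under about 1 CPM rest on few counts.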

Other observations

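Pseudogene rows that carry the family names held counts as well, and those of 3 parent genes are given. *Hsp25-ps1*, a copy of *Hspb1*, had 90, 158 and 142 counts across the control libraries and 364, 459 and 312 counts across the senescent ones, with a log2 fold change of 1.12 (SE 0.25, adjusted p = 0.00437) in the fit of all genes. *Hspa9-ps1*, a copy of *Hspa9*, had 17, 16 and 13 counts across the control libraries and 29, 35 and 44 counts across the senescent ones, with 0.76 (SE 0.22, adjusted p = 0.0154). *Dnajc19-ps* had 28, 42 and 33 counts across the control libraries and 34, 41 and 55 counts across the senescent ones and did not pass, with -0.13 (SE 0.19, adjusted p = 0.579). Each of these 3 pseudogenes thus had the same sign as its parent gene in these libraries, and whether the reads came from the pseudogene or from its parent was not tested.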
